A study of Rattus norvegicus with 24 samples.

Results

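Spectrins are long, flexible proteins that form the membrane skeleton, a lattice of spectrin and short actin filaments beneath the plasma membrane. An alpha and a beta spectrin pair to form the rod, and ankyrins, the adapters of the lattice, bind beta spectrins on one side and channels, pumps and adhesion molecules of the membrane on the other. In neurons the lattice lines the axon, and its ankyrin-rich stretches at the axon initial segment and at the nodes of Ranvier hold the sodium and potassium channels that start and carry the action potential. In red blood cells a lattice of the same kind, built only in part from other family members, gives the cell its shape.

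The 7 genes described here code for the alpha II spectrin (Sptan1), the beta spectrins I (Sptb), II (Sptbn1) and IV (Sptbn4), and the ankyrins R (Ank1), B (Ank2) and G (Ank3). They were chosen by gene name among the 26641 named loci of the count table, and a name with several loci was to be represented by that of highest mean over the 24 libraries. This was not needed, because each of the 7 names had 1 locus. Messenger RNA was sequenced from adult male Sprague-Dawley rats, 3 months after a lateral fluid-percussion injury (TBI) or a sham operation, which comprised the anesthesia and surgery without the impact. The perilesional cortex and the ipsilateral thalamus were taken from the same 12 rats, 6 with TBI and 6 sham-operated, which gave 4 groups of 6 libraries. The study used MRI to identify TBI rats with an enhanced T2 signal around the lesion, so the group stands for injury with a chronic perilesional inflammatory rim.

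Values are given as normalized counts, which are the fragments of a locus after division by a factor that the authors set for each library. The libraries held 30568927 to 54608922 fragments, and the lowest number of fragments behind any value of the 7 genes was 1251, for Sptb in a TBI thalamus. The sums of normalized counts were 37244965 to 39621156 in the TBI libraries and 39629659 to 41732163 in the sham libraries, so the scaling between libraries bears on small differences. Marker genes matched the labelled tissue. The summed cortex identity genes ran from 63686 to 82183 normalized counts in cortex and from 5231 to 13985 in thalamus, and the thalamus identity genes from 75833 to 134072 in thalamus and from 4205 to 5708 in cortex. In 6 libraries the 6 choroid plexus markers summed to between 10853 and 252658, against at most 2164 in the other libraries. These were the cortex of sham rats 26 and 34, the thalamus of sham rats 34 and 50, and both regions of TBI rat 45. The results are given with and without them where a call depended on them.

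Positions are those listed in the deposited files, whose annotation is Rnor_5.0. Sptan1 lay on chromosome 3 from 13878432 to 13966415, Sptb on chromosome 6 from 109022501 to 109181277, Sptbn1 on chromosome 14 from 114186960 to 114363564, and Sptbn4 on chromosome 1 from 85379599 to 85463659. Ank1 lay on chromosome 16 from 73306251 to 73544652, Ank2 on chromosome 2 from 250572726 to 251056280, and Ank3 on chromosome 20 from 22242405 to 22611923. The counts sum over the whole gene, with up to 10 listed start sites (Ank2 and Ank3), so the isoforms that set neurons apart from red blood cells, or the axon initial segment apart from the rest of the axon, were not told apart. Some listed ranges held a second gene. Plekhg3 shared that of Sptb, and Wdr34 that of Sptan1, with group means of 329 to 452 normalized counts for Wdr34. Plekhg3 had means of 1759 in sham cortex and 2645 in TBI cortex, and of 4377 in sham thalamus and 5973 in TBI thalamus. It was thus higher in TBI rats in both regions, where Sptb had lower means. Whether the counting used strand is not given in the sources used here, and the share of reads that such neighbours could lend was not tested.

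The promoter sequences of 5 of these genes are printed to show what genes of 1 lattice share and where they differ before expression is compared. They are the 250 bases before the annotated start on the gene's own strand, from RefSeq for the build GRCr8, and 6 of the 7 genes had an entry (Ank1 had none). For each gene 1 stretch was used. Most of these genes have several listed start sites, up to 10 for Ank2 and Ank3, and the stretches before other starts were not searched. Capitals mark the GC box GGGCGG, searched on both strands (CCGCCC on the other).
Sptan1: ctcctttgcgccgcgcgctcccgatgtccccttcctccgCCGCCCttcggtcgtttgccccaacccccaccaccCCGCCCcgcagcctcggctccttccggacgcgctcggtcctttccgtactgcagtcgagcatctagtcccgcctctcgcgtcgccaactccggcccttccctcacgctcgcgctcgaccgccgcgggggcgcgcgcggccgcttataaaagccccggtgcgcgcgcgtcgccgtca
Sptbn1: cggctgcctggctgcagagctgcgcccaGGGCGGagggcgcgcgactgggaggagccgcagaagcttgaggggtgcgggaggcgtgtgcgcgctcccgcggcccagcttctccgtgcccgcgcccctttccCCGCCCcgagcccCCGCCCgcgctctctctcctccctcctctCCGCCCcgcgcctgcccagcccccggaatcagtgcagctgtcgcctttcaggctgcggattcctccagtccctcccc
Sptb: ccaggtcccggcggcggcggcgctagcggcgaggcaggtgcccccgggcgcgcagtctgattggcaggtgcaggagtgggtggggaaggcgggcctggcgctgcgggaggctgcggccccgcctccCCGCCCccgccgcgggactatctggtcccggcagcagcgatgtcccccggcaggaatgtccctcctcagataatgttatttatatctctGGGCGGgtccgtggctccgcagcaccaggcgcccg
Sptbn4: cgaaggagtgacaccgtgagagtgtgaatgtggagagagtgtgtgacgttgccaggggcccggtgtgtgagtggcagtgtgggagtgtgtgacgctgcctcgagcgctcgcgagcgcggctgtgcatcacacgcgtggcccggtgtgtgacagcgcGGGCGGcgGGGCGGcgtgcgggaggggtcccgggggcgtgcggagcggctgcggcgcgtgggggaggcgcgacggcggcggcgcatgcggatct
Ank3: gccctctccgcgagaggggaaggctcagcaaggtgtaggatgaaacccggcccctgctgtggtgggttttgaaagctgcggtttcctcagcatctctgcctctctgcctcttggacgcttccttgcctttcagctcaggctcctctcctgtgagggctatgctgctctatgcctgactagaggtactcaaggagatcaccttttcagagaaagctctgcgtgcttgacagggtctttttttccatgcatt
These stretches are chr3:33638819-33639068 on the plus strand for Sptan1, chr14:108217837-108218086 on the minus strand for Sptbn1, chr6:101170279-101170528 on the minus strand for Sptb, chr1:91864841-91865090 on the minus strand for Sptbn4, and chr20:18929178-18929427 on the minus strand for Ank3. The 4 spectrin promoters each held the GC box, 4 times in Sptbn1 and 2 times in each of the others, whereas those of Ank2 and Ank3 held none. Of all 33469 rat promoters of the same length in the table, 30.5% held it. The GC content was 72.4% to 75.2% in the 4 spectrin promoters, 64.4% in Ank2 and 54.8% in Ank3, against a median of 51.2% over all promoters. The letters TATAAA occurred in Sptan1 and Sptb (12.9% of all promoters) and the GATA motif AGATAA in Sptb alone of the 6 (10.3%), both searched on both strands. Neither the E-box CACGTG (5.59% of all promoters) nor the cyclic AMP response element TGACGTCA (1.59%) occurred in any of the 6. The motifs did not overlap one another.

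**Figure D1:**
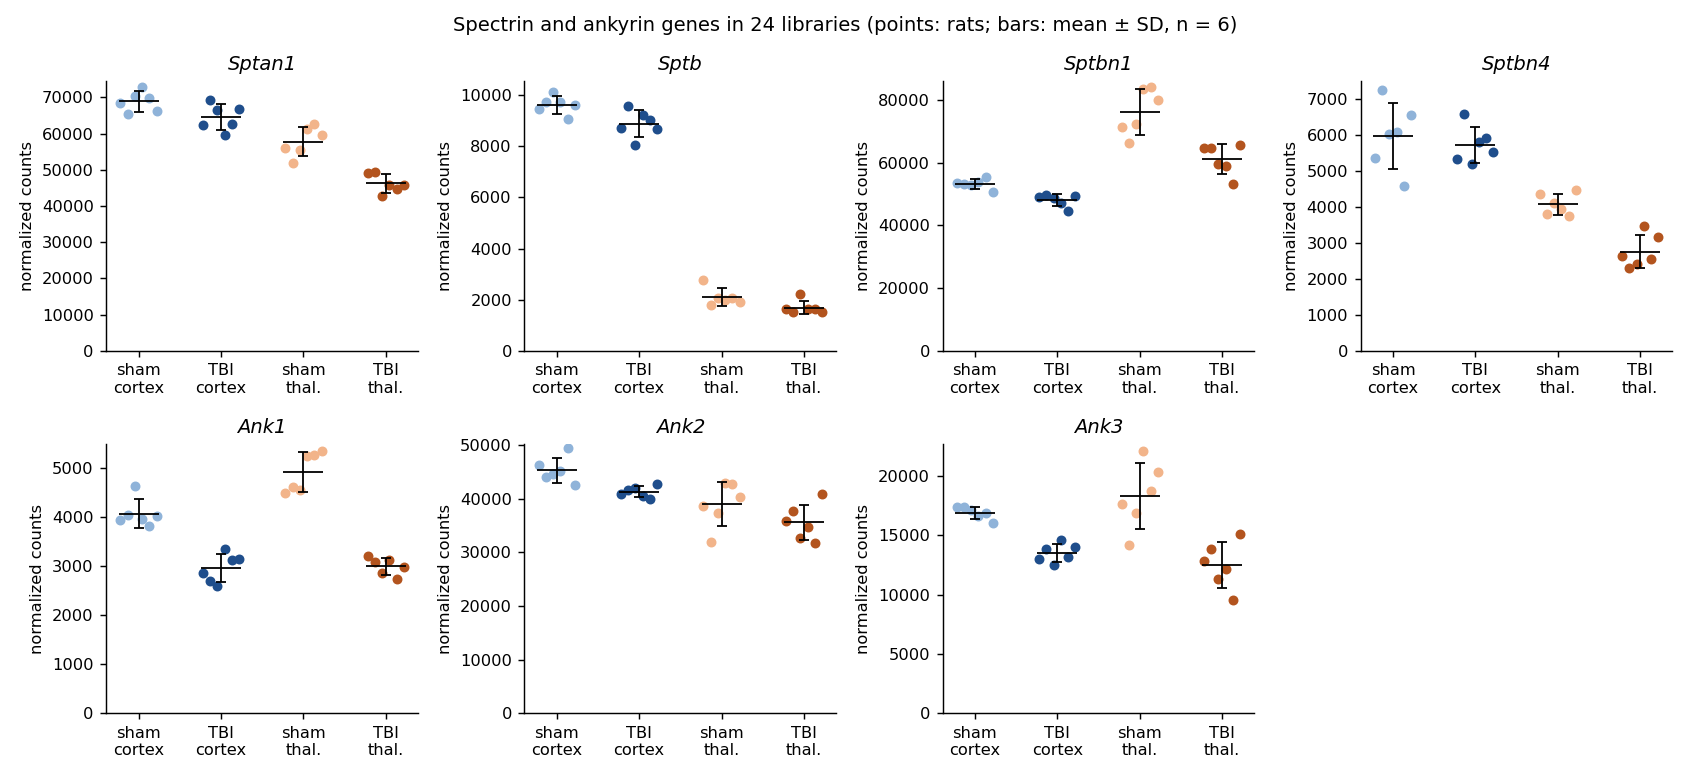
Normalized counts of the 7 spectrin and ankyrin genes in each library (points, 1 per rat), with the mean and SD of the 6 rats of a group in black. Vertical axes start at 0. Sptb drops from cortex to thalamus, Ank1 lies lower in TBI than in sham in both regions without overlap, and Sptbn1 is the highest in sham thalamus.

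The first comparison asked how the 7 genes differed between TBI and sham-operated rats in the perilesional cortex. The ankyrins Ank1 and Ank3 fell by 27.2% and 20.0% of the sham mean, and Sptbn1 and Ank2 fell by 9.69% and 8.86%, while Sptan1, Sptb and Sptbn4 did not pass the test. In all, 4 of the 7 genes were lower at a Benjamini-Hochberg adjusted p under 0.05 (limma on log2 of the normalized count plus 1) and none was higher. Over all 15493 loci tested, 14.9% were lower and 14.3% higher by the same rule. The split depended on the scaling, with 50.9% of the calls lower as deposited and 22.6% with equal sums, which moved the median of all loci up by 0.084. Each of the 7 genes had a mean above 1000 normalized counts, and among the 7290 loci of such a mean 25.5% were lower. The median log2 difference of the 7 genes was -0.13, against -0.0096 over all loci. Fewer cells of a type and less RNA per cell cannot be told apart in such tissue samples.

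Ank1 codes for ankyrin-R, the ankyrin of red blood cells, which some inhibitory neurons also make. In sham cortex it ran from 3816 to 4636 normalized counts with a median of 3993, and in TBI cortex from 2595 to 3358 with a median of 2999. The highest TBI rat thus lay below the lowest sham rat. On the log2 scale the difference was -0.46 ± 0.067 (SE, n = 6 per group; limma adjusted p = 0.00019).

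Ank3 codes for ankyrin-G, the organizer of the axon initial segment. It ran from 16074 to 17384 with a median of 17027 in sham cortex and from 12464 to 14635 with a median of 13502 in TBI cortex, again without overlap. This came to -0.32 ± 0.045 on the log2 scale (limma adjusted p = 0.000137).

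Sptbn1 codes for the beta II spectrin, the main partner of alpha II spectrin along the axon shaft. It ran from 50688 to 55430 with a median of 53390 in sham cortex and from 44567 to 49574 with a median of 48981 in TBI cortex, so the groups did not overlap here either. The log2 difference was small, -0.15 ± 0.041 (limma adjusted p = 0.0152). Such a separation downward held for 3 of the 7 genes and for 5.45% of all loci.

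Ank2 codes for ankyrin-B, the ankyrin of the axon shaft. It ran from 42640 to 49368 (median 44856) in sham cortex and from 39898 to 42817 (median 41294) in TBI cortex. Of the 6 TBI rats, 5 lay below every sham rat. The log2 difference was -0.13 ± 0.043 (limma adjusted p = 0.0299). The calls of Sptbn1 and Ank2 depended on the scaling. With the sums of all libraries made equal, their log2 differences were -0.063 (limma adjusted p = 0.256) and -0.048 (limma adjusted p = 0.403), and without the libraries rich in choroid plexus markers they were -0.15 (limma adjusted p = 0.0893) and -0.14 (limma adjusted p = 0.138). Both calls were also lost under upper quartile scaling (limma adjusted p = 0.133 and 0.221) and in a fit of all 24 libraries (limma adjusted p = 0.0631 and 0.129), and that of Ank2 without the filter on low values (limma adjusted p = 0.0677). The Ank2 call was lost as well on leaving out any 1 of 6 libraries, those of sham rats 26, 38 and 50 and of TBI rats 22, 52 and 56, with a limma adjusted p of at most 0.066.

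Of the genes that did not pass the test in cortex, Sptan1, the alpha spectrin of neurons, had 68889 ± 2850 normalized counts in sham cortex and 64594 ± 3526 in TBI cortex (SD, n = 6 each). Its log2 difference was -0.094, with a 95% confidence interval from -0.19 to 0.0074. Sptb, the beta I spectrin, had 9619 ± 356 and 8891 ± 536, a log2 difference of -0.11 (interval from -0.21 to -0.015, limma adjusted p = 0.0769). It passed the test without TBI rat 24 (limma adjusted p = 0.0368). Sptbn4, the beta IV spectrin that ankyrin-G recruits to the axon initial segment and the nodes, had 5964 ± 924 and 5714 ± 501, a log2 difference of -0.051 with an interval from -0.25 to 0.15. Each of its 6 TBI values lay within the range of the sham values, which was wide, from 4583 to 7241.

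In the ipsilateral thalamus, away from the site of impact, the question was the same. There 6 of the 7 genes were lower in TBI rats and none was higher, with Ank2 as the gene that did not pass the test. Ank1 fell by 39.1% of the sham mean, Sptbn4 by 32.3%, Ank3 by 31.8%, and Sptan1, Sptbn1 and Sptb by 20.0%, 19.8% and 19.6%. Over the 15564 loci tested, 20.9% were lower and 14.5% higher (59.0% of the calls lower as deposited and 32.1% with equal sums, which moved the median of all loci up by 0.10, so the changes are relative to the deposited scaling), and of the 7303 loci with a mean of at least 1000 normalized counts 34% were lower. The median log2 difference of the 7 genes was -0.32, against -0.023 over all loci. The groups separated downward without overlap for 4 of the 7 genes, Sptan1, Sptbn1, Sptbn4 and Ank1, and for 10.7% of all loci.

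Ank1 ran from 4485 to 5358 normalized counts (median 4937) in sham thalamus and from 2733 to 3206 (median 3033) in TBI thalamus. A wide gap separated the groups. The log2 difference was -0.71 ± 0.060 (SE, n = 6 per group; limma adjusted p = 1.18e-06), and it stayed between -0.74 and -0.69 when any 1 library was left out.

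Sptbn4 ran from 3752 to 4469 (median 4013) in sham thalamus and from 2297 to 3461 (median 2596) in TBI thalamus. The TBI rats spread more than the sham rats here, yet the highest of them stayed below the lowest sham rat. Its log2 difference was -0.57 ± 0.092 (limma adjusted p = 0.000294).

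Ank3, its ankyrin partner, ran from 14199 to 22096 (median 18204) in sham thalamus and from 9542 to 15113 (median 12519) in TBI thalamus. Of the 6 TBI rats, 5 lay below every sham rat, and sham rat 32 held the lowest sham value. Its log2 difference was -0.55 ± 0.11 (limma adjusted p = 0.00194).

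The alpha II and beta II spectrins moved by nearly the same amount. Sptan1 ran from 51869 to 62563 (median 57688) in sham thalamus and from 42668 to 49255 (median 45749) in TBI thalamus, a log2 difference of -0.32 ± 0.061 (limma adjusted p = 0.001). Sptbn1 ran from 66231 to 84026 (median 76114) in sham thalamus and from 53239 to 65587 (median 62124) in TBI thalamus, a log2 difference of -0.32 ± 0.076 (limma adjusted p = 0.00491). In each of these 2 genes every TBI rat lay below every sham rat.

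Sptb was lower, with a log2 difference of -0.31 ± 0.11 (limma adjusted p = 0.0357), from 1790 to 2765 (median 2025) in sham thalamus and from 1497 to 2217 (median 1624) in TBI thalamus. This call was fragile. It was lost under each of the 3 other scalings, with a limma adjusted p of 0.0757 to 0.163, and on leaving out any 1 of 8 libraries, those of sham rats 26, 34 and 50 and of TBI rats 22, 24, 52, 56 and 63, with a limma adjusted p of at most 0.0763. The highest sham value was that of rat 26 and the highest TBI value that of rat 45, each far from the rest of its group. Without sham rat 26 the log2 difference was -0.23 (limma adjusted p = 0.0662), and without TBI rat 45 it was -0.39 (limma adjusted p = 0.00401). Rat 26 had the lowest summed cortex identity genes of the sham thalami, 7849 normalized counts, and rat 45 the highest of the TBI thalami, 7858. Each of these rats had the lowest summed thalamus identity genes of its group. Rat 26 had 97885 against 106421 to 134072 in the other sham thalami, and rat 45 had 75833 against 86780 to 94492 in the other TBI thalami. Rat 26 also had the highest summed oligodendrocyte markers of the sham thalami, 569530 against at most 455332 in the others. Rat 45 had the highest summed erythroid markers of the TBI thalami, 9163 against 3875 to 5317 in the others, and Sptb is itself a gene of red blood cells. Among the sham thalami, rat 32 had the highest erythroid sum, 7313, and the lowest Sptb value, and rat 26 had a sum of 5602. The thalamus of rat 45 also had the highest choroid plexus sum of the 24 libraries, 252658. Within its group it had the lowest neuron marker sum, 212203, and the highest endothelium marker sum, 14285. The part of these markers in the 2 values was not tested.

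Ank2 had 38985 ± 4133 normalized counts in sham thalamus and 35584 ± 3317 in TBI thalamus (SD, n = 6 each). Its log2 difference of -0.13 matched that of the cortex in size, but the rats spread more, and the interval ran from -0.30 to 0.043 (limma adjusted p = 0.234). Leaving out the 3 thalamus libraries rich in choroid plexus markers left the number of genes called at 6.

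**Figure D2:**
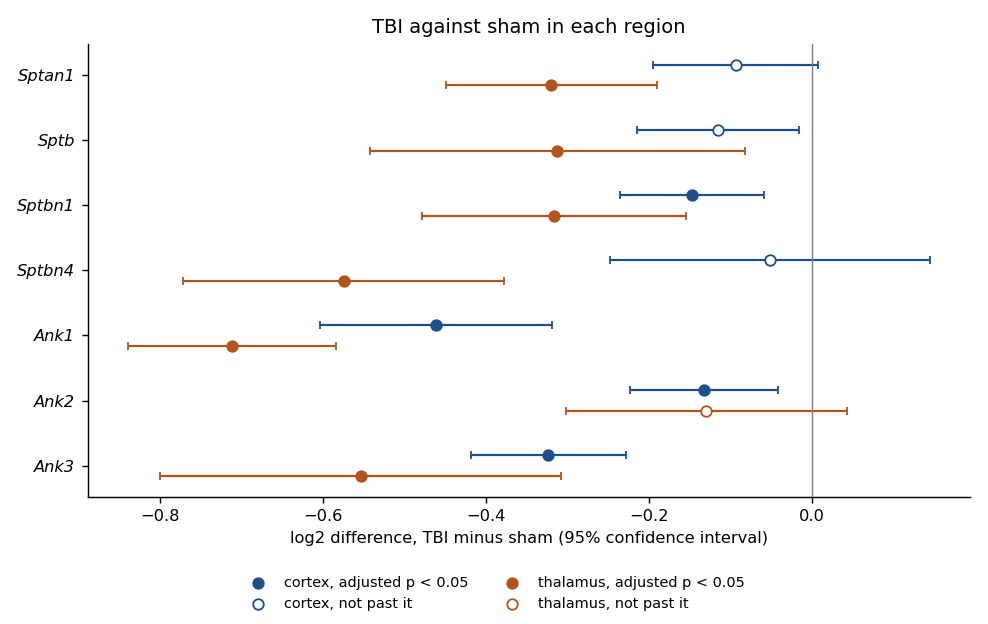
Log2 difference between TBI and sham rats (horizontal axis) for the 7 genes in cortex (blue) and thalamus (orange), with 95% confidence intervals of the limma fit, n = 6 rats per group. Filled points passed an adjusted p of 0.05. All points lie left of 0, though that of Sptbn4 in cortex moves to 0.011 under upper quartile scaling and to 0.033 with equal sums, Ank1 and Ank3 are filled in both regions, and Sptbn4 runs from -0.051 in cortex to -0.57 in thalamus.

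An interaction term, fitted to the 24 libraries together, asked whether the TBI effect differed between the regions. Sptbn4 was the gene of the 7 that passed, with a more negative TBI effect in thalamus (-0.57) than in cortex (-0.051, which did not pass). Thalamus minus cortex was -0.52 ± 0.14 on the log2 scale (SE, limma adjusted p = 0.0208). Over all 15678 loci tested, 7.26% passed in either direction. The rat as a block, since both regions came from the same rats, left the number at 1. The call was lost without rat 24 (-0.43, limma adjusted p = 0.0756), rat 26 (-0.47, limma adjusted p = 0.0612) or rat 56 (-0.50, limma adjusted p = 0.057), and without the 6 libraries rich in choroid plexus markers (-0.51, limma adjusted p = 0.121), while the difference itself moved little.

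The other genes did not pass this test. The interaction was -0.23 for Sptan1 (95% interval from -0.38 to -0.075, limma adjusted p = 0.0597), -0.25 for Ank1 (from -0.44 to -0.063, limma adjusted p = 0.0948) and -0.23 for Ank3 (from -0.50 to 0.034, limma adjusted p = 0.299). For Sptan1 the call depended on the setting. It passed with a mean of at least 50 (limma adjusted p = 0.0498), with edgeR (adjusted p = 0.0495) and DESeq2 (adjusted p = 0.0184) on the recovered fragments, without rat 22 (limma adjusted p = 0.0499) and without rat 32 (limma adjusted p = 0.0436). Ank1 passed without rat 34 (-0.31, limma adjusted p = 0.0449). Sptb and Sptbn1 stood at -0.20 (from -0.45 to 0.053) and -0.17 (from -0.34 to 0.0025). The interval for Ank2 lay around 0, from -0.19 to 0.19.

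The same rats also allowed thalamus and cortex to be compared within each treatment. The limma values given here come from fits without the rat as a block, and the numbers of calls with it are given at the end. In sham rats 6 of the 7 genes differed. Sptb was 4.58-fold lower in thalamus, Sptbn4 1.47-fold, Sptan1 1.19-fold and Ank2 1.16-fold lower, whereas Sptbn1 was 1.43-fold and Ank1 1.21-fold higher. Such differences were common between these regions, where 62.2% of all 15582 loci passed in either direction, and 43.1% did not overlap, as did 4 of the 7 genes (Sptan1, Sptb, Sptbn1 and Sptbn4).

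Sptb showed the widest gap between regions of the 7 genes. It ran from 9055 to 10125 in sham cortex and from 1790 to 2765 in sham thalamus, and from 8041 to 9598 in TBI cortex and from 1497 to 2217 in TBI thalamus. Within a rat the thalamus held 0.184 to 0.293 of the cortical level in sham rats and 0.159 to 0.276 in TBI rats. On the log2 scale thalamus minus cortex was -2.21 ± 0.080 in sham rats (limma adjusted p = 2.02e-12) and -2.41 ± 0.084 in TBI rats (limma adjusted p = 7.5e-12).

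Sptbn1 went the other way. It was higher in the thalamus of each of the 6 sham rats, by 1.24- to 1.58-fold, and of each of the 6 TBI rats, by 1.195- to 1.33-fold. The log2 difference was 0.51 ± 0.059 in sham rats (limma adjusted p = 1.62e-06) and 0.34 ± 0.061 in TBI rats (limma adjusted p = 0.000213). The alpha partner Sptan1 was lower in the thalamus of all 12 rats, at 0.788 to 0.899 of the cortical level in sham rats and 0.641 to 0.788 in TBI rats. The summed oligodendrocyte markers, from 8 loci, were also higher in thalamus, 402311 to 569530 normalized counts against 126016 to 174738 in cortex, and their part in the regional levels was not tested.

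In TBI rats 5 of the 7 genes differed between regions, against 57.5% of the 15737 loci tested, and 4 did not overlap (36% of all loci), namely Sptan1, Sptb, Sptbn1 and Sptbn4. Sptbn4 was 2.08-fold lower in TBI thalamus than in TBI cortex, with within-rat ratios of 0.349 to 0.598, where sham rats had 0.524 to 0.819. Ank1, higher in thalamus than cortex in 5 of 6 sham rats (log2 difference 0.27 ± 0.060, limma adjusted p = 0.000991), was higher in 3 and lower in 3 of the TBI rats (0.021 ± 0.067, limma adjusted p = 0.812). Ank2 was lower in the thalamus of all 12 rats, with a log2 difference of -0.22 in both treatments. Ank3 did not pass the test in either treatment, at 0.10 (from -0.072 to 0.28) in sham rats and -0.13 (from -0.32 to 0.066) in TBI rats. Without sham rat 32 its value in sham rats was 0.18 (limma adjusted p = 0.0302).

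**Figure D3:**
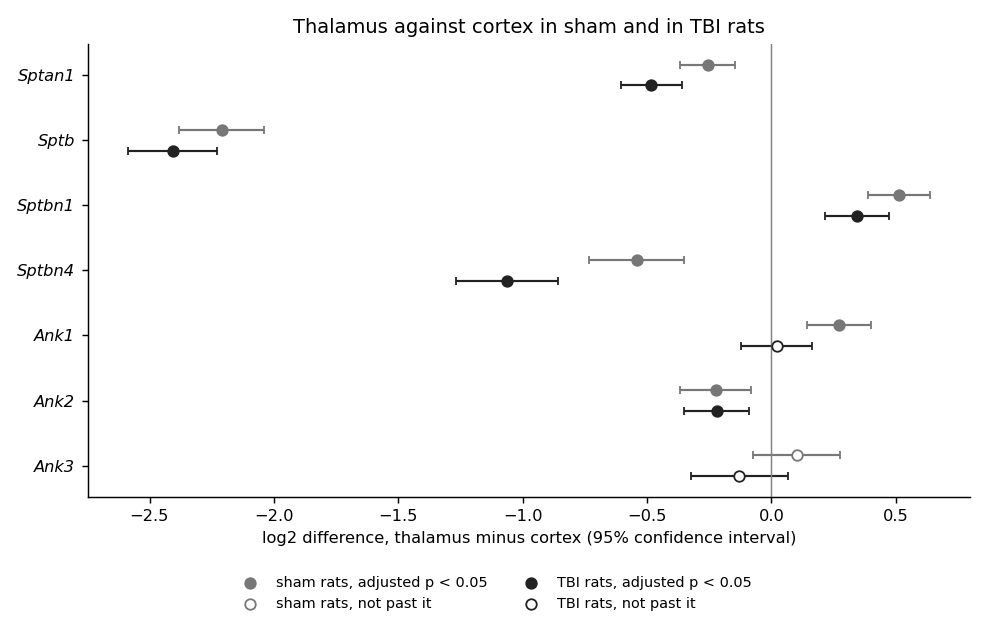
Log2 difference between thalamus and cortex (horizontal axis) for the 7 genes in sham rats (grey) and TBI rats (black), with 95% confidence intervals of the limma fit, n = 6 rats per group. Filled points passed an adjusted p of 0.05. Sptb lies far left of 0 in both treatments, Sptbn1 lies right of 0, and the point of Ank1 moves from 0.27 in sham rats to 0.021 in TBI rats.

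The order of the 4 group means grouped the genes. Sptan1, Sptb, Sptbn4 and Ank2 ran from sham cortex through TBI cortex and sham thalamus to TBI thalamus. Neighbours in this order overlapped for Ank2 at every step, and for Sptan1 at every step but the last. For Sptb there was no overlap between TBI cortex and sham thalamus, and for Sptbn4 none there nor between the thalami. Sptbn1 ran from sham thalamus through TBI thalamus and sham cortex to TBI cortex, with overlap only between TBI thalamus and sham cortex. Ank1 and Ank3 had both sham groups above both TBI groups. For each of these 2 ankyrins, neighbours of the same treatment overlapped and the lowest sham group of the order did not overlap the TBI group below it. For Ank3 this was sham cortex, whereas sham thalamus, the group of highest mean, overlapped both TBI groups. It reached down to 14199, against highest values of 14635 in TBI cortex and 15113 in TBI thalamus.

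Rats of a group differed little in most of these genes. The coefficient of variation within a group had a median over the 7 genes of 4.14% in sham cortex and 5.78% in TBI cortex, and of 9.56% and 9.32% in sham and TBI thalamus. It was highest, at 16.6%, for Sptbn4 in TBI thalamus and lowest, at 2.53%, for Ank2 in TBI cortex. Loci whose profiles over the 24 libraries were nearest to those of each gene, by the root mean square difference of centred log2 values among 15677 loci, were sought next. They were Pi4ka (0.0703) and Tcf20 (0.0722) for Sptan1, Sipa1l1 (0.12, on a locus joined with another gene identifier) and Neto1 (0.159) for Sptb, and Slc38a1 (0.0734) and ENSRNOG00000025353 (0.0773) for Sptbn1. For Sptbn4 they were RGD1561113 (0.0838) and Map3k10 (0.1), and Map3k10 is listed on the same chromosome, from 85683937 to 85704588, which is 220278 bases beyond the end of Sptbn4. Ank1 was nearest to Dnajc15 (0.114) and Adam23 (0.116), Ank2 to Apitd1 (0.0502) and Ncor1 (0.0519), and Ank3 to Gramd1b (0.104) and Ttbk2 (0.119). No member of the family was among the 2 nearest loci of another. Only 2 of 15677 loci were kept for each gene, so this does not tell whether members share a profile.

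Ank1 and Sptb are also genes of the red blood cell membrane, so erythroid markers were followed beside them. None of these markers passed the test in either region, 0 of 6 tested in cortex and 0 of 5 in thalamus by limma. Their sum over 8 loci ran from 5743 to 8986 normalized counts in sham cortex and from 5456 to 8763 in TBI cortex, and no erythroid marker was at 0 in every library. The sums of TBI and sham rats overlapped in thalamus as well.

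The partners of the lattice were followed in 4 further lists, counted under the deposited scaling only. Over all loci tested, 14.9% were lower and 14.3% higher in TBI cortex, and 20.9% were lower and 14.5% higher in TBI thalamus. Of the loci with a mean of at least 1000 normalized counts, 25.5% and 34% were lower. These shares stand beside each list count below. Among 16 genes of the axon initial segment and the node, 12 were lower and 0 higher in TBI cortex by limma, and 11 were lower and 0 higher in TBI thalamus. Their median log2 differences were -0.28 and -0.49. Scn8a, the main sodium channel of mature initial segments and nodes, fell, with a log2 difference of -0.33 ± 0.046 in cortex (limma adjusted p = 0.000138) and of -0.83 ± 0.12 in thalamus (limma adjusted p = 0.000142). Scn4b, a beta subunit of these channels, fell in thalamus, with a log2 difference of -2.17 ± 0.24 (limma adjusted p = 1.18e-05).

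Scn4b ran from 3999 to 6563 normalized counts in sham thalamus and from 525 to 1861 in TBI thalamus, without overlap. In cortex it ran from 5635 to 8810 in sham rats and from 3277 to 6488 in TBI rats (log2 difference -0.42 ± 0.14, limma adjusted p = 0.039). This cortical call was lost without the libraries rich in choroid plexus markers, where Scn4b stood at -0.16, and on leaving out any 1 of 7 libraries, with a limma adjusted p of at most 0.0868. It was also lost under upper quartile scaling, equal sums, no filter on low values and a fit of all 24 libraries (limma adjusted p of 0.0518 to 0.141). The 5 genes of this list that did not pass in thalamus were named after their values were seen, and were the adhesion molecules Nfasc (-0.17), Nrcam (-0.081) and Cntn1 (-0.051), Cntn2 (0.030) and Gldn (0.10), given as log2 differences.

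Of 9 measured transporters and adhesion proteins that ankyrins bind, 4 were lower in TBI cortex and 6 in TBI thalamus, with 0 higher in either by limma, and median log2 differences of -0.19 and -0.35. Atp1b1, a beta subunit of the sodium pump, fell in both regions, with log2 differences of -0.44 ± 0.065 in cortex and -0.60 ± 0.073 in thalamus.

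The 11 measured genes of the membrane skeleton itself, the adducins, protein 4.1 family, dematin and tropomodulins, went both ways. In TBI cortex 6 were lower and 3 higher, and in TBI thalamus 3 were lower and 4 higher, with median log2 differences of -0.12 and 0.019. Epb41l3, a neuronal protein 4.1, fell in both regions, with log2 differences of -0.38 ± 0.062 in cortex (limma adjusted p = 0.000458) and -0.67 ± 0.082 in thalamus (limma adjusted p = 3.12e-05). Dmtn, dematin, fell, with a log2 difference of -0.14 ± 0.050 in cortex (limma adjusted p = 0.046) and of -0.47 ± 0.052 in thalamus (limma adjusted p = 1.36e-05), but the cortical call did not hold. It was lost without the libraries rich in choroid plexus markers (-0.14, limma adjusted p = 0.181), under upper quartile scaling (-0.079, limma adjusted p = 0.224), with equal sums (-0.057, limma adjusted p = 0.37), without the filter on low values (limma adjusted p = 0.065) and on leaving out any 1 of 8 libraries (limma adjusted p of at most 0.102). Tmod1, tropomodulin 1, which caps the slow end of the actin filaments, changed in opposite directions. It ran from 2150 to 2468 normalized counts in sham cortex and from 1826 to 2115 in TBI cortex, and from 723 to 901 in sham thalamus and from 1159 to 1683 in TBI thalamus. The log2 differences were -0.26 ± 0.049 (limma adjusted p = 0.0015) and 0.72 ± 0.096 (limma adjusted p = 6.67e-05), with an interaction of 0.98 ± 0.11 (limma adjusted p = 4.11e-06).

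Spectrin is also a classical substrate of calpains. In the list of spectrin proteases and their regulators 4 of 5 genes were measured, of which 1 was higher and 0 lower in TBI cortex, and 1 higher and 1 lower in TBI thalamus. Capn1, the catalytic subunit of calpain 1, rose in TBI cortex by 0.31 ± 0.087 (limma adjusted p = 0.0143) and fell in TBI thalamus, with a log2 difference of -0.32 ± 0.060 (limma adjusted p = 0.000971), with an interaction of -0.63 ± 0.10 (limma adjusted p = 0.00054). The rise in cortex did not pass without the libraries rich in choroid plexus markers (0.26, limma adjusted p = 0.0877). Cast, the calpain inhibitor calpastatin, rose in thalamus by 0.32 ± 0.078 (limma adjusted p = 0.00569) and stood at -0.030 ± 0.084 in cortex. Capn2, the catalytic subunit of calpain 2, named after its values were seen, stood at 0.0059 in cortex and 0.0061 in thalamus. These are levels of messenger RNA, and protease activity was not measured.

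**Figure D4:**
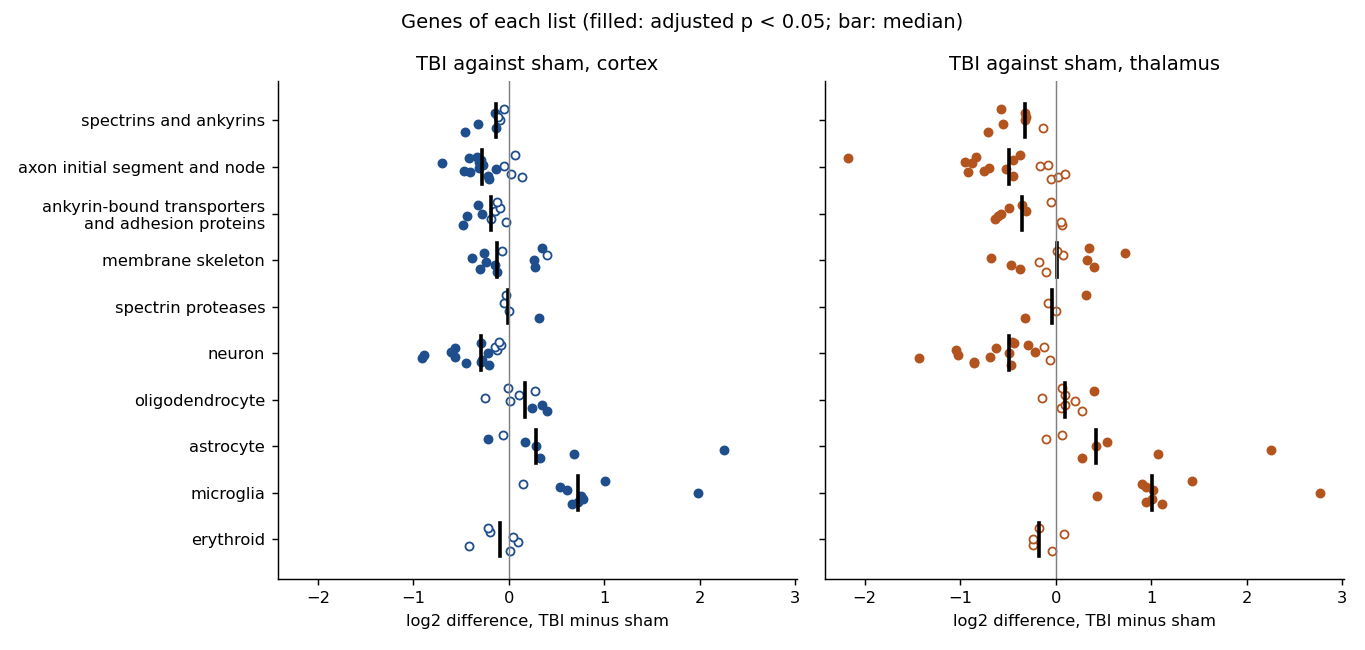
Log2 difference between TBI and sham rats (horizontal axes, same scale) for each measured gene of 10 lists in cortex (left) and thalamus (right). Filled points passed an adjusted p of 0.05, and black bars are list medians. The spectrins and ankyrins, the axon initial segment genes and the neuron markers lie mostly left of 0, the microglia markers right of 0, and the membrane skeleton genes on both sides.

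Cell type markers moved with the injury. The 15 neuron markers summed to 468550 to 496670 normalized counts in sham cortex and 342129 to 435141 in TBI cortex, and to 321405 to 384532 in sham thalamus and 212203 to 266563 in TBI thalamus. Their mean sum was thus 21.1% lower in TBI cortex and 28.5% lower in TBI thalamus, without overlap in either region. Of these markers, 11 were lower in cortex and 13 in thalamus, with median log2 differences of -0.29 and -0.48. Ank1 fell by more than the neuron sum in both regions, Ank3 and Sptbn4 by more in thalamus, and the 4 other genes by less in both. This order depended on the measure. Against the median log2 difference of the markers, Ank3 fell by more in cortex as well (-0.32 against -0.29). Single neuron markers ran from -0.91 to -0.078 in cortex and from -1.43 to -0.061 in thalamus. Whether a gene fell by more than the markers was not tested. The microglia markers rose in 8 of 9 genes in cortex and 9 of 9 in thalamus, with sums of 17231 to 21374 against 11815 to 12612 and of 27429 to 35681 against 13231 to 17577. The astrocyte sum was also higher in TBI rats without overlap in both regions, and the oligodendrocyte sums overlapped. The part of these shifts in the levels of the 7 genes was not tested.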

How the data were processed

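Polyadenylated RNA of the perilesional cortex and ipsilateral thalamus of 12 adult male rats was sequenced with stranded libraries. The authors aligned the reads with TopHat2 2.0.11 and Bowtie2 2.2.2 and quantified them with Cufflinks 2.2.1, and the processing notes name Rnor_5.0. The deposited signal values are fragment counts per locus divided by a size factor of the library. Low values, up to 2000 fragments, were whole multiples of 1 fragment in 100% of cases (tolerance 0.02), so fragments were recovered. The 42334 loci included 15693 without a gene name (1.9% to 2.232% of a library), which were left out.

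Each comparison used limma 3.58.1 in R 4.3.3 (trend) on log2(normalized count + 1), over named loci with a mean of at least 10, and called a locus where its adjusted p (Benjamini-Hochberg) stayed below 0.05. The 1 added before the logarithm understates changes of low genes. On recovered fragments, the edgeR 4.0.16 quasi-likelihood test called 4533 loci in cortex and 5478 in thalamus, and limma 4531 and 5516. DESeq2 1.42.0, other scalings, filters and pseudocounts, left-out libraries and a rat block were alternatives. The equal sums, edgeR, DESeq2 and the omission of libraries whose choroid plexus markers summed above 10000 were added after seeing the data. The procedure was tested on simulated data.

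Rat numbers in the labels pair the regions. Deviations of the 2 libraries of a rat correlated at 0.00393 to 0.569 (median 0.187, over 0.1 in 10 of 12 rats). Of 60 pairs of libraries within groups, none was identical.

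The genes and lists were chosen with earlier results of these data known. Named genes were the 7, the other spectrins, the 3 genes of smallest p in either region from each of 4 lists, and for each of the 7 the 2 nearest loci. Some genes that this rule names are not reported here. Of the listed genes, 14 had no locus. Promoters came from RefSeq (GRCr8). Transcript lengths were not used, so levels are not compared between genes. Neither the strand setting of the counting nor the assembly sequence behind the listed positions is given unambiguously in the sources used here.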

Additional observations from a re-analysis of the deposited data

Results flagged for a closer look

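In 3 of 28 groups of 6 libraries (7 genes in 4 groups), 1 library lay far from the others by Dixon's criterion, which chance meets in about 1 of 20 groups. Sptb reached 2765 normalized counts in the thalamus of sham rat 26 and 2217 in the thalamus of TBI rat 45. Ank1 reached 4636 in the cortex of sham rat 34.

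The TBI effect differed between thalamus and cortex, by the limma interaction, for 6 of the 15 genes reported, against 7.26% of all loci. Of the 15 genes, 8 had been picked for a small p for TBI against sham in either region, and genes that are not reported are not in this count, so the share of 6 of 15 is a description. On the log2 scale, thalamus minus cortex was -0.52 for Sptbn4, -1.75 for Scn4b and -0.50 for Scn8a. It was -0.33 for Dmtn, 0.98 for Tmod1 and -0.63 for Capn1. The difference for Scn8a was no longer called without any 1 of rats 38, 50, 52, 55 and 56 (limma adjusted p of at most 0.07), and those for Scn8a and Dmtn were no longer called without the libraries rich in choroid plexus markers (limma adjusted p = 0.125 and 0.0575).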

How the results depend on the processing

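In cortex 4 of the 7 genes were called, and 2 under upper quartile scaling, equal sums, a fit of all 24 libraries and without the libraries rich in choroid plexus markers (3 to 5 on leaving out 1 library). In thalamus the count of 6 ranged from 5 to 6 on leaving out 1 library. For the difference between regions the count of 1 became 2 with a mean of at least 50, with edgeR and with DESeq2, and 0 without the libraries rich in choroid plexus markers (0 to 2 on leaving out 1 rat). With the rat as a block, which uses the pairing of regions, the counts stayed at 1 for the difference between regions and at 6 and 5 for thalamus against cortex in sham and TBI rats. These signs turned, all for values that did not pass the test. Under upper quartile scaling and equal sums the cortical log2 differences became 0.011 and 0.033 for Sptbn4 and 0.032 and 0.055 for Cast. Thalamus against cortex in TBI rats for Ank1 became -0.0065 under TMM scaling and -0.0034 without the libraries rich in choroid plexus markers. On leaving out 1 library or rat, values ran from -0.12 to 0.0076 for Sptbn4 and from -0.070 to 0.032 for Cast in cortex, from -0.045 to 0.034 for Ank2 in the interaction, and from -0.014 to 0.064 for Ank1 between regions in TBI rats. The causes were not tested. For the 7 genes, 414 values under the other settings kept their direction and side of the threshold, 13 lost a call, 3 gained one and 4 turned. On leaving out 1 library or rat these numbers were 304, 17, 5 and 10. Depth did not limit the 7 genes, whose values rested on at least 1251 fragments.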
